A study of Mus musculus with 40 samples.

Results

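The 10 genes by which brown fat cells are recognised, namely Ucp1, Cidea, Cox7a1, Cox8b, Otop1, Kcnk3, Mb, Esrrg, Cpt1b and Elovl3, were followed through adipocyte differentiation in 20 immortalised brown fat cell lines. They were picked by symbol, and all 10 were found among 29787 gene symbols read out in every library. The lines were isolated from brown adipose tissue of C57BL/6 mice and kept at passage 6 to 12. Undifferentiated preadipocytes and cells at day 8 were sequenced once per line, which makes 2 groups of 20 libraries. Day 8 counts from the induction with IBMX, dexamethasone, indomethacin, T3 and insulin, with T3 and insulin renewed in the medium afterwards. The labels name the lines by a letter and a number and do not say which animal a line came from or whether it is a clone, so p-values measure the spread between these lines.

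Brown adipocytes burn fuel for heat, which sets them apart from lipid-storing white adipocytes. Ucp1 lets protons back through the inner mitochondrial membrane without making ATP, and the other 9 genes supply, permit or accompany that oxidation. Ucp1 transcription in brown fat is known to depend on adrenergic stimulation and cAMP as well as on the differentiation state. No adrenergic agonist is named in the labels, while the induction mix held IBMX and T3. The effect of any of these on Ucp1 was not tested. Several of the genes, Mb, Cox7a1, Cox8b, Cpt1b and Esrrg among them, are also strongly expressed in heart and skeletal muscle.

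Total counts on genes were 19535806 to 28074918 in undifferentiated and 27181830 to 43113838 in day 8 libraries. Levels are counts scaled to library size with TMM factors (normalised CPM), at which 3 counts, the limit that a count of 0 allows, correspond to 0.107 to 0.154 CPM and 0.0696 to 0.110 CPM before adjustment by these factors. Limits and intervals for single libraries cover counting error only. The deposited files of the 2 stages were tallied differently: low-quality and unaligned reads are at 0 in all 20 day 8 files and above 0 in all 20 undifferentiated files, so that stage and counting cannot be told apart. Conversion to fat cells was followed by an adipocyte score, the mean log2 CPM of 24 common adipocyte genes such as Adipoq, Plin1 and Cd36. Of the day 8 libraries, C6 at a score of 3.62 and D5 at 6.52 stood apart from the other 18, which lay between 7.72 and 9.08. Results that rest on both lines are given with and without them. In these bulk libraries fewer brown fat cells and less RNA per cell cannot be told apart.

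The promoter windows of Ucp1 and of 2 oxidase subunits with a widely expressed partner gene are shown as examples of genes that rose from near 0 at day 8. Each window is the 250 bases before the RefSeq gene start in build GRCm38.p6, given 5′ to 3′ on the gene's strand. Capitals mark matches, on either strand, to AGGTCA, the half-site of many nuclear receptors, or TGACG, the core of the cAMP response element.
Ucp1, chr8:83290098-83290347, plus strand: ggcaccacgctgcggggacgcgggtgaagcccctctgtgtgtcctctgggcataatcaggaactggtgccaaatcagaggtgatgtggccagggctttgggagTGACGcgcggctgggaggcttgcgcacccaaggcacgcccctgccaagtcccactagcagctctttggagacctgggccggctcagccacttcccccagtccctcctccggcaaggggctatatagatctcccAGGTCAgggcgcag
Cox7a1, chr7:30183921-30184170, plus strand: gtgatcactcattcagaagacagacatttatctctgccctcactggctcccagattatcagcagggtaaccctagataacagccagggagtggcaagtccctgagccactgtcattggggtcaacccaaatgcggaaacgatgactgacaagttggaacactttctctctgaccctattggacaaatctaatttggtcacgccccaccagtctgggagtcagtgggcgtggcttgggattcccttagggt
Cox7a2, chr9:79759854-79760103, minus strand: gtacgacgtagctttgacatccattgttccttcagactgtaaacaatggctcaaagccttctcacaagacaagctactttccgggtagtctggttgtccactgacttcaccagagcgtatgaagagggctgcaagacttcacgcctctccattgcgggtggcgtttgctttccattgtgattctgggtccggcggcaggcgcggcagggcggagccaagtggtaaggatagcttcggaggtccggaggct
Cox8b, chr7:140900447-140900696, minus strand: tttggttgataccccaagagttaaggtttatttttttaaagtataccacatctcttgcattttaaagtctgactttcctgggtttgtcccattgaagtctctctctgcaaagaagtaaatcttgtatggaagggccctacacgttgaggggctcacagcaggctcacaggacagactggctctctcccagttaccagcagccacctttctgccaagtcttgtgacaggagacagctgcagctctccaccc
Cox8a, chr19:7217617-7217866, minus strand: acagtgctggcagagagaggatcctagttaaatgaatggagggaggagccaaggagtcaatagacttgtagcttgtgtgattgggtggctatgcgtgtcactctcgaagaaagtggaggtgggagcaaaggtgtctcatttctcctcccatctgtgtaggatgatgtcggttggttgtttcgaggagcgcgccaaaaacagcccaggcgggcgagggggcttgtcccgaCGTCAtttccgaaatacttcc

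The Ucp1 window held TGACG at 147 bases and AGGTCA at 14 bases before the start. Among 32851 promoter windows, 17.8% held TGACG and 14.0% held AGGTCA, so that both words are common. The windows of Cox7a1 and Cox8b, the subunits restricted to brown fat and muscle, held 4 and 1 CpG dinucleotides, against 14 and 11 for their widely expressed partners Cox7a2 and Cox8a. The Ucp1 window held 12, as many as those of the partners, so few CpG were not shared by the restricted genes shown. The median over all windows was 6. TGACG also matched in the Cox8a window, 21 bases before the start. The TATA box (TATAAA, in 12.4% of all windows), the E-box (CACGTG, 6.02%), the full cAMP element (TGACGTCA, 1.55%), the EBF motif (0.779%), the estrogen-related receptor element (TCAAGGTCA, 0.387%), the C/EBP palindrome (TTGCGCAA, 0.164%) and the direct repeat DR1 of PPAR (0.0335%) were searched too and not found in these 5 windows. TGACG lies within TGACGTCA, and AGGTCA within TCAAGGTCA and DR1. RefSeq windows were searched for 6 of the 10 genes. Those of Mb, not shown, held TGACG at 63 bases and AGGTCA at 77 or 137 bases before different gene starts. Those of Otop1 and Esrrg, not shown either, held neither word.

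Ucp1, the uncoupling protein itself, was nearly absent before induction and uneven at day 8. It had 9 counts in all in the 20 undifferentiated libraries and 0 counts in 13 of them. At day 8 it ranged from 0 counts in C6 through a median of 0.751 CPM to 51.2 CPM in B6. The groups overlapped only through A3 at 0.0836 CPM, D5 at 0.0533 CPM and C6. Line B6 had 2191 counts, or 51.2 CPM with an exact 95% interval of 49.1 to 53.4, and B3 had 684 counts, or 26.9 CPM with an interval of 24.9 to 29.0. D6 followed at 4.12 CPM (3.47 to 4.85), and these were the only 3 lines above 3 CPM, while 11 lines lay below 1 CPM. B6 alone held 52.3% of the Ucp1 level summed over lines, and the top 3 lines held 84.0%. Of the 19 neighbouring pairs in the order of lines, 17 had overlapping counting intervals, and the steps below B6 and below B3 were the ones that did not overlap. With 1 library per line and stage, the spread between cultures of 1 line was not measured.

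**Figure D1:**
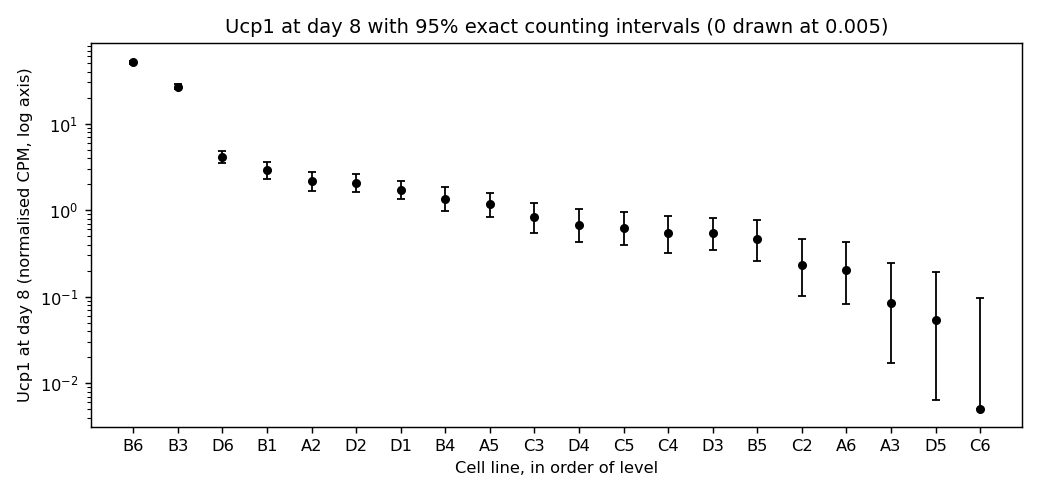
Ucp1 level in each of the 20 day 8 libraries, as normalised CPM on a log axis, with lines ordered by level. Bars are exact 95% counting intervals, and C6, with 0 counts, is drawn at 0.005. B6 and B3 stand above D6 at 4.12 CPM, and most neighbours below overlap.

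All 10 genes were called higher at day 8 at an adjusted p under 0.05 (edgeR, quasi-likelihood; Benjamini-Hochberg over 22846 genes). The background was high, since 35.7% of all tested genes were called higher and 30.2% lower. Their median log2 fold change was 7.68, against 0.0947 over all genes. For 3 of the 10, Cidea, Cox7a1 and Mb, every day 8 library lay above every undifferentiated one, as it did for 7.59% of all genes. Fitted fold changes of genes with few counts before induction depend on the prior count. A count filter by stage kept 8 of the 10, without Ucp1 and Otop1, and all 8 were called higher against 43.1% of the genes it kept.

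Ucp1 rose by 7.74 on the log2 scale (SE 0.95, edgeR adjusted p = 1.424e-09), and it was higher in 19 of 20 lines. Without B6, B3 and D6 the log2 fold change was 5.17 (SE 0.62, adjusted p = 3.238e-09). Cidea, a lipid droplet protein long used as a brown fat marker, had 6 counts in all before induction. At day 8 its lowest level was 0.133 CPM in D5, its median 6.12 CPM and its highest 208 CPM in B6. It rose in 20 of 20 lines, by 10.50 on the log2 scale (SE 1.01, edgeR adjusted p = 2.39e-12), or by 8.70 without B6, B3 and D6. B6, B3 at 112 CPM and D6 at 51.2 CPM together held 76.6% of its summed level, the same 3 lines in the same order as for Ucp1.

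**Figure D2:**
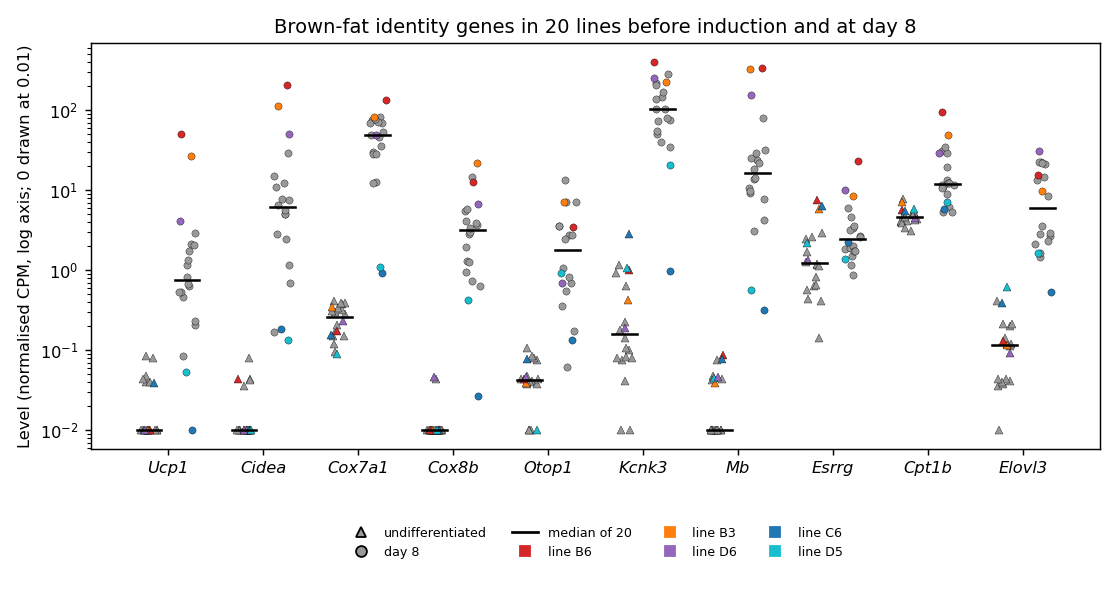
Normalised CPM on a log axis of the 10 genes in 20 undifferentiated (triangles) and 20 day 8 (circles) libraries, with the median as a black line and 0 drawn at 0.01. Lines B6, B3 and D6 lie at the top of Ucp1, Cidea, Mb and Esrrg, and C6 and D5 lie near the bottom of most genes.

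The 2 subunits of cytochrome c oxidase, the last complex of the respiratory chain, were higher at day 8 in every line. For Cox8b in C6 this was 0 counts before and 1 count at day 8, within the limit that a count of 0 allows. Cox7a1 went from 0.0887 to 0.415 CPM, with a median of 0.257, to a median of 48.6 CPM and a range of 0.928 (C6) to 134 CPM (B6). Its log2 fold change was 7.61 (SE 0.44, adjusted p = 3.977e-19 by edgeR). Its level was spread more evenly than that of Ucp1, since its top 3 lines held 29.5% of the sum, and only C6 and D5, at 1.09 CPM, lay below 12 CPM. Cox8b had 2 counts in all before induction and 3103 at day 8. The ratio of its summed levels was 1097 with a counting interval of 304 to 9065. Its day 8 level was 0.0265 CPM in C6, 3.18 CPM at the median and 22.2 CPM in B3, the one gene of the set besides Otop1 and Elovl3 that was not highest in B6.

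Both subunits have a widely expressed partner gene, and the 2 counts were set against each other within each library, with 0.5 added to each. Cox7a1 made up 0.236% of the Cox7a1 and Cox7a2 counts at the median before induction and 17.95% at day 8, from 0.891% in D5 to 32.1% in B6. The log2 ratio rose by 6.31 ± 1.41 (SD, n = 20 lines), up in 20 of 20 lines, with p = 2.5e-05 by a paired permutation test adjusted over 5 gene pairs, the smallest the 100000 resamples allow for both subunits. Cox8b rose against Cox8a in 20 of 20 lines, in C6 on 1 count, but reached 0.942% of the pair's counts at the median and 5.04% at most, in B3. Since 18 undifferentiated libraries had 0 Cox8b counts, the size of its rise is set by depth and by the added count: it was 5.65 ± 1.60 with 0.5 added and 4.74 ± 1.53 with 1 added. Cox7a2 and Cox8a rose as well, Cox7a2 from 117 ± 15.9 to 197 ± 53.8 CPM and Cox8a from 142 ± 16.0 to 308 ± 92.1 CPM (mean ± SD, n = 20). In a reference annotation of another build, 4.13% of the 31-base words of Cox7a2 recur in processed pseudogenes, and none of Cox7a1, Cox8b or Cox8a do.

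Cpt1b, the muscle and brown fat form of carnitine palmitoyltransferase 1, which admits fatty acids to mitochondria, was present before induction. It lay between 3.13 and 7.80 CPM with a median of 4.63. At day 8 it ranged from 5.35 CPM in A6 through a median of 12.0 CPM to 94.2 CPM in B6, so that the groups overlapped although it was higher in 20 of 20 lines. Its log2 fold change was 2.08 (SE 0.29, adjusted p = 2.25e-08 by edgeR). It took 6.96% of the counts of Cpt1b and the liver form Cpt1a at the median before induction and 27.3% at day 8. In B6 it took 83.2% and in C6 4.504%. Cpt1a itself moved in both directions, from 2695 to 812 raw counts in B6 and from 954 to 4622 in C6. The share therefore reflects both genes and not a gain of Cpt1b alone. The log2 ratio rose by 2.15 ± 2.10 (SD, n = 20 lines), up in 15 of 20 lines, with an adjusted p of 0.0005 by paired permutation. In the reference annotation 81.4% of the exon bases of Cpt1b are shared with a gene on the same strand, Gm44502. Whether the authors' annotation held that gene is not given in the sources used here, so the level of Cpt1b is uncertain.

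**Figure D3:**
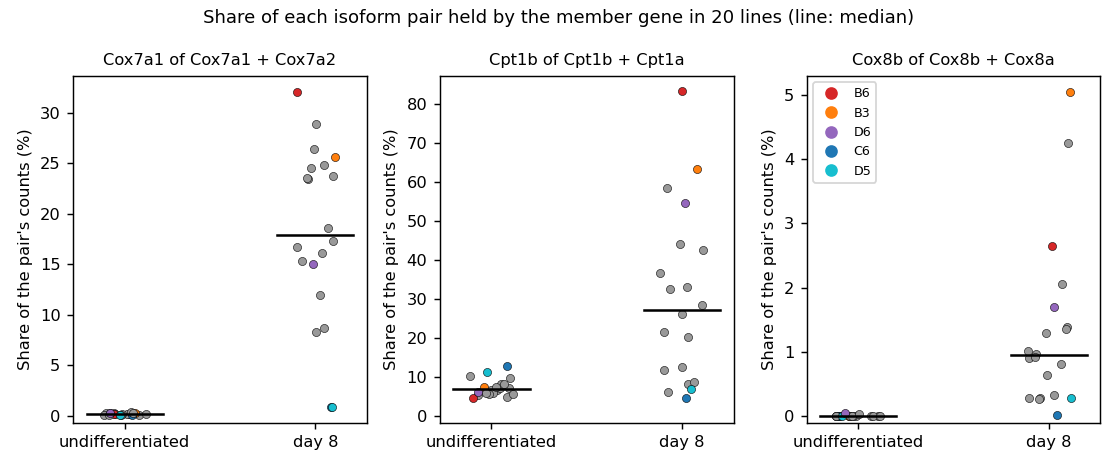
Share of the counts of an isoform pair held by Cox7a1, Cpt1b and Cox8b, in percent, for 20 lines before induction and at day 8, with the median as a black line. The medians went from 0.236% to 17.95%, from 6.96% to 27.3% and from 0% to 0.942%, and at day 8 C6 and D5 lay near the bottom in all 3 panels.

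Mb, myoglobin, the oxygen store of muscle, showed the largest fitted rise of the 10 genes. Undifferentiated libraries held 12 counts in all, none above 0.0866 CPM. At day 8 it ranged from 0.318 CPM in C6 through a median of 16.5 CPM to 338 CPM in B6, with B3 at 325 CPM and D6 at 156 CPM. The log2 fold change was 10.91 (SE 0.91, adjusted p = 4.064e-14 by edgeR), and 9.60 without B6, B3 and D6. Several defining genes of muscle were at or near 0: Myod1 had 2 counts in all 20 day 8 libraries together, Myog 6, Ckm 7, Myh4 2 and Myh6 5. Others were higher at day 8. Mean Tnnc2 went from 1.48 to 3.82 CPM and cardiac Myl3 from 0.0622 to 0.949 CPM, and Myf5 from 3 to 36 counts in all. Cardiac Gata4 averaged 8.31 CPM at day 8 without a call, and cardiac Tnnt2 fell from 10.2 to 0.172 CPM. Of 20 skeletal muscle markers, 6 were called higher, 2 lower and 12 neither, where 35.7% of all genes were called higher and 30.2% lower, and 17 had a day 8 mean under 1 CPM. Their summed day 8 level was 6.98 to 34.1 CPM, led by Acta1 and Actn3, and it was 10.9 CPM in B6, 24.2 CPM in B3, 9.48 CPM in D6, 30.4 CPM in C6 and 34.1 CPM in D5. Of 10 cardiac markers, 1 was called higher, 4 lower and 5 neither, with a summed level of 2.37 to 29.6 CPM. In the reference annotation an antisense gene, Gm49540, covers 27.6% of the exon bases of Mb. The strand setting of the counting is not given in the sources used here, so reads of Mb and of this gene may not be separated.

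Kcnk3, a potassium leak channel that in mouse brown adipocytes counters membrane depolarisation, was the second most abundant of the genes per length. It lay between 0 and 2.87 CPM before induction with a median of 0.160, and C6 was the highest. At day 8 it ranged from 0.981 CPM in C6 through a median of 104.5 CPM to 404 CPM in B6. C6 was thus the 1 line in which it was lower at day 8, and every other line reached at least 20.5 CPM. The log2 fold change was 8.15 (SE 0.58, adjusted p = 2.364e-16 by edgeR).

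Otop1, a proton channel, went from 0 to 0.106 CPM to a range of 0.0617 CPM in D4 to 13.4 CPM in D3, with a median of 1.78 CPM. It was higher in 20 of 20 lines, by 5.90 on the log2 scale (SE 0.57, edgeR adjusted p = 2.6e-12). In D4 this was 0 counts before and 2 at day 8, within the limit that a count of 0 allows. Its order of lines departed from that of several of the other genes. D4, where Kcnk3 reached 283 CPM, had the lowest Otop1, and B6 came seventh at 3.43 CPM. Elovl3, an enzyme that lengthens very long fatty acids and is strongly induced in brown fat by cold, had a median of 0.118 CPM before and 6.08 CPM after induction. It ranged at day 8 from 0.530 CPM in C6 to 31.2 CPM in D6, with B6 sixth at 15.7 CPM. It rose in 20 of 20 lines, by 5.99 on the log2 scale (SE 0.52, edgeR adjusted p = 1.539e-13).

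Esrrg, a nuclear receptor that drives mitochondrial genes in oxidative muscle, changed least. Before induction it ranged from 0.142 to 7.54 CPM with a median of 1.24, and at day 8 from 0.863 CPM in A3 through a median of 2.42 CPM to 23.4 CPM in B6. The groups overlapped widely. Its log2 fold change was 1.03 (SE 0.41, adjusted p = 0.02715 by edgeR), and it was higher in 16 of 20 lines. In C6 it went from 6.45 to 2.23 CPM, and D2, D3 and D5 were also lower. Without B6, B3 and D6 the log2 fold change was 0.70 and the adjusted p was 0.07105, so that the call rests on these lines. The log2 ratio to its relative Esrra changed by 0.04 ± 1.09 (SD, n = 20 lines), up in 8 of 20 lines, with an adjusted p of 0.889 by paired permutation.

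Per kilobase of exon, with lengths from the reference annotation, the median day 8 levels were ordered from Cox7a1 at 90.8 CPM per kilobase through Kcnk3 at 26.3, Mb at 11.03, Cox8b at 8.84, Cidea at 5.49, Cpt1b at 3.56 and Elovl3 at 3.08 to Otop1 at 0.517, Ucp1 at 0.459 and Esrrg at 0.390. Ucp1, the gene that names the tissue's function, was thus ninth of 10 by these medians. Its place below Otop1 did not hold within libraries. There the mean log2 difference of Otop1 over Ucp1 was -0.532 ± 2.22 (SD), and Otop1 was the higher in 10 of 20 lines. Within libraries, the difference between neighbours in this order exceeded its own SD over lines for Cox7a1 over Kcnk3, at 1.499 ± 1.01 on the log2 scale and in 18 of 20 lines, and for Elovl3 over Otop1, at 2.75 ± 2.47 and in 18 of 20 lines. For the other 7 neighbouring pairs the mean difference within libraries was smaller than its SD. The first gene was the higher in 15 of 20 lines for Mb over Cox8b, in 14 for Kcnk3 over Mb and for Ucp1 over Esrrg, and in 10 to 13 for the rest. Ucp2, a relative of Ucp1 with wide expression, went from 1.73 ± 1.25 to 99.9 ± 51.4 CPM (mean ± SD, n = 20). No change of the ratio of Ucp1 to Ucp2 is read, since Ucp1 was at 0 in 13 undifferentiated libraries and Ucp2 had as few as 2 counts there, so that the added count sets the starting ratio. Ucp1 took 1.03% of the pair's counts at the day 8 median and 22.3% at most, in B3.

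The lines kept similar places across the genes. B6 was highest for 7 of the 10 and among the top 3 for 8, B3 was among the top 3 for 8 and D6 for 6. At the other end C6 was lowest for 6 and among the bottom 3 for 9, and D5 was among the bottom 3 for 7. Esrrg was the exception for C6, which came eleventh. These are descriptions of single libraries, since no line was sequenced more than 1 time per stage.

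Whether the genes follow the extent of fat-cell conversion was examined by fitting every gene to the adipocyte score over the 20 day 8 libraries. The score shares no gene with the 10. Of them 6 were called higher with a higher score, against a background of 14.8% of all genes tested. These were Ucp1, Cox7a1, Cox8b, Kcnk3, Mb and Elovl3. Kcnk3 had a slope of 1.47 (SE 0.22, adjusted p = 7.634e-05 by edgeR) and Cox7a1 of 1.34 (SE 0.21, adjusted p = 0.0001164 by edgeR), in log2 units per unit of score. Ucp1 had the steepest slope, 2.84, with the largest error (SE 1.03, adjusted p = 0.04318 by edgeR), and it was not called without B6 (adjusted p = 0.1118). The adjusted p was 0.05168 for Cidea, 0.1111 for Cpt1b, 0.1252 for Otop1 and 0.2783 for Esrrg. Without C6 and D5 the calls fell to 2, Cox7a1 and Kcnk3, against a background of 7.04%. The slopes of the 4 lost genes were then 2.56 for Ucp1 (SE 2.23), 2.03 for Cox8b (SE 0.93), 2.21 for Mb (SE 1.72) and 2.20 for Elovl3 (SE 0.88), against 2.84, 1.66, 1.80 and 1.01 over all lines. Their errors were all larger than over the 20 lines. Esrrg, not called either way, went from a slope of 0.33 (SE 0.22) to 1.90 (SE 0.84, adjusted p = 0.1288 by edgeR). B6 itself had a score of 8.73 and B1, the highest, 9.08, at Ucp1 levels of 51.2 and 2.92 CPM.

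Fitting every gene to log2 Ucp1 over the same libraries called 7 of the other 9 genes higher with more Ucp1, against 8.92% of all genes. The slope, in log2 units per doubling of Ucp1, was 1.04 for Cidea (SE 0.09, adjusted p = 6.812e-06 by edgeR), 0.85 for Mb (SE 0.10) and 0.64 for Cox8b (SE 0.11). Slopes of 0.37 to 0.41 were found for Cpt1b, Esrrg, Kcnk3 and Cox7a1. Elovl3 had a slope of 0.43 (SE 0.17, adjusted p = 0.07486) and Otop1 of 0.31 (SE 0.19, adjusted p = 0.2506), and neither was called. With the score added to the model, 5 of 9 were called, Cidea, Cox8b, Mb, Esrrg and Cpt1b, against 0.958% of all genes. The slope of Esrrg was then 0.52 (SE 0.05, adjusted p = 6.763e-05 by edgeR), and those of Cox7a1 and Kcnk3, at 0.19 and 0.20, were no longer called. The same 5 were called without C6 and D5, against 1.6% of all genes, and without B6, against 6.33%. Without B6, B3 and D6, 4 of 9 were called against 1.28% of all genes, since Esrrg had an adjusted p of 0.0547. Ucp1 is a noisy covariate in the lines with few counts. Of the 20 skeletal and 10 cardiac muscle markers none was called higher with more Ucp1. The skeletal markers Tnni2, Actn3 and Pvalb were called lower, as were 11.4% of all genes. At day 8, 17 of the skeletal and 9 of the cardiac markers averaged under 1 CPM, which limits what these fits can show.

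**Figure D4:**
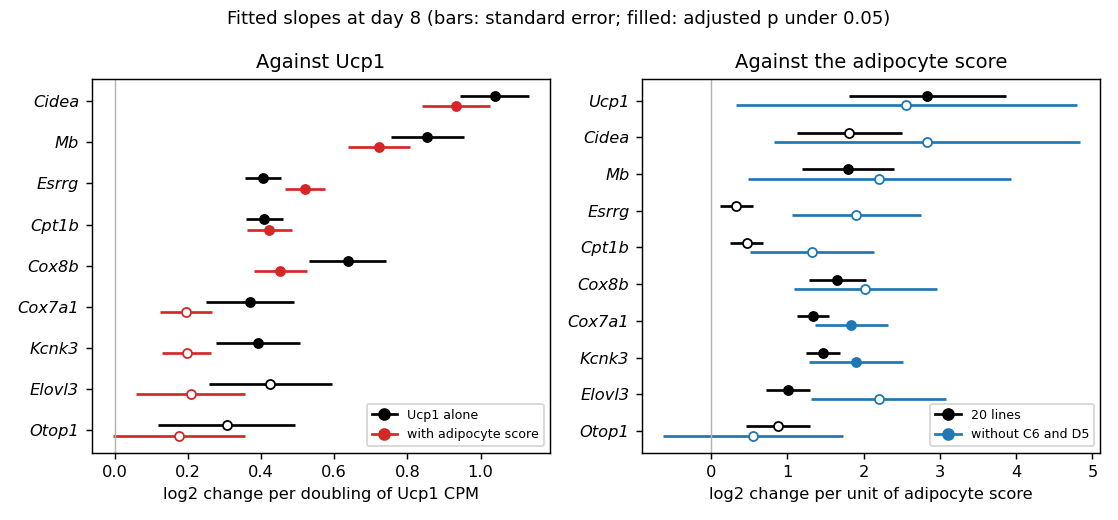
Fitted slopes with standard errors at day 8, filled where the adjusted p was under 0.05. The left panel gives log2 change per doubling of Ucp1 alone and with the adipocyte score added to the model, and the right panel log2 change per unit of adipocyte score over 20 lines and without C6 and D5. Cidea, Mb, Esrrg, Cpt1b and Cox8b stay filled on the left in both fits, and Cox7a1 and Kcnk3 stay filled on the right.

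Pairwise correlations of log2 CPM over the 20 day 8 libraries were computed for the 45 pairs, with permutation p-values adjusted over the 45. By Pearson's r 38 pairs and by Spearman's rho 37 pairs passed 0.05, with a median rho of 0.668. The highest was that of Ucp1 and Cidea, with r = 0.926 and rho = 0.878, at adjusted permutation p-values of 3.46e-05 and 0.00015. Without B3 and B6, farthest from the median of Ucp1, r was 0.901. Ucp1 and Esrrg had r = 0.872 and rho = 0.862, at adjusted permutation p-values of 3.46e-05 and 0.00018, and r = 0.754 without B3 and B6. Otop1 stood apart, with 3 of its 9 pairs passing by r and 3 by rho. The pairs with Cox8b and Cpt1b passed by both, that with Ucp1 by r only and that with Cox7a1 by rho only. With Kcnk3, Otop1 had a rho of -0.054 (r = 0.174, adjusted permutation p-values of 0.826 and 0.503). Cox7a1 and Elovl3 were also loosely tied, with rho = 0.307 (adjusted permutation p = 0.206) and r = 0.578 (adjusted permutation p = 0.00582). That r was 0.315 without C6 and D5, so that it rested on these lines. Without C6 and D5, 31 pairs passed by r and 26 by rho. All libraries share the culture protocol and the scaling to library size.

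**Figure D5:**
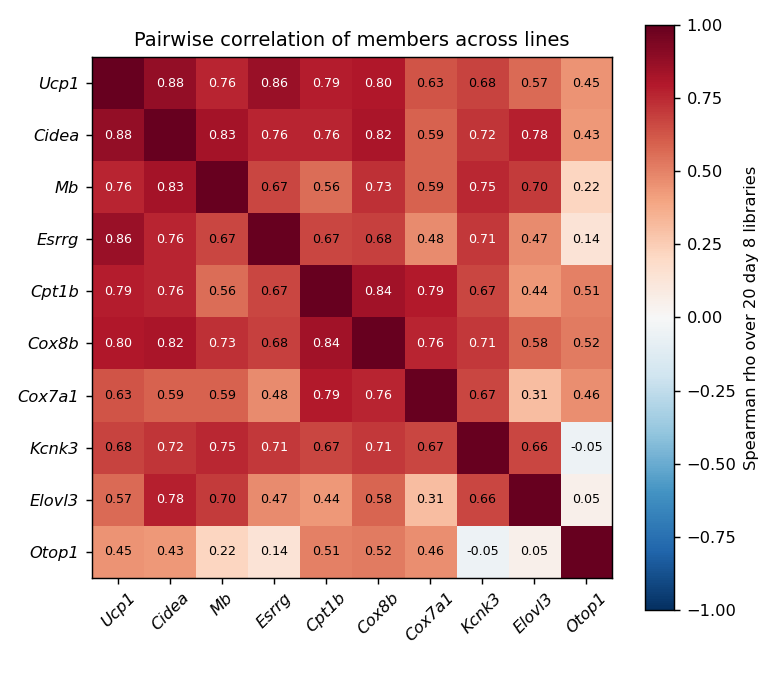
Spearman's rho between the 10 genes over 20 day 8 libraries, printed in each cell and coloured from -1 to 1. Values among Ucp1, Cidea, Mb, Esrrg, Cpt1b and Cox8b run from 0.562 to 0.878. Those of Kcnk3 with these genes, from 0.666 to 0.752, lie in the same range. Otop1 has the lowest values, down to -0.054.

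Genes most like Ucp1 by Spearman's rho over the 20 day 8 libraries were taken among 10846 genes averaging 5 CPM or more. The first was Dnajc11, a mitochondrial DnaJ-type protein, at rho = 0.887, and Cidea was the second. Then came 2010107E04Rik and Dlst at 0.874, Rdh14 at 0.869, Dffa at 0.866, Ptgr2 at 0.853, Rpl36al at 0.850, Dld at 0.845 and 6530401N04Rik at 0.844. Dlst and Dld are subunits of the 2-oxoglutarate dehydrogenase complex of the tricarboxylic acid cycle. Several of these varied little between lines, such as Dnajc11 at 95.7 ± 15.9 CPM and Dffa at 24.8 ± 3.23 CPM (mean ± SD, n = 20). The lowest values were -0.839 for Prosapip1, -0.832 for Zc3h7b and -0.830 for Aff1. On the same scale 0.0553% of the genes lay at or above Esrrg, 0.240% at or above Cox8b and 19.5% at or above Otop1. For the other members, the nearest gene by Pearson's r of log2 CPM was Lctl for Cox7a1 (0.977), AK035982 for Kcnk3 (0.976), Mrpl37 for Mb (0.955), Dlst for Cidea (0.921), Pdhb for Cox8b (0.917), Atp5s for Esrrg (0.883), Entpd5 for Elovl3 (0.870), Hadha for Cpt1b (0.868) and Lep for Otop1 (0.821). Lep, the hormone leptin, is a gene of white more than of brown fat cells.

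Of 25 regulators and signalling genes of brown fat with counts, 19 were called higher at day 8, 1 lower and 5 neither. Over all genes 35.7% were called higher and 30.2% lower. Irf4 went from 0.0843 ± 0.0731 to 41.3 ± 30.4 CPM (mean ± SD, n = 20), the beta-3 adrenergic receptor Adrb3 from 0.461 ± 0.348 to 154.8 ± 93.8 CPM and the coactivator Ppargc1b from 0.829 ± 0.671 to 36.1 ± 31.4 CPM. Prdm16 and Ebf2, transcription factors of brown fat fate, rose as well, Prdm16 from 1.61 ± 1.88 to 6.23 ± 4.76 CPM and Ebf2 from 44.5 ± 21.5 to 83.3 ± 49.3 CPM. Ehmt1, a partner of Prdm16, fell from 104.6 ± 10.01 to 77.5 ± 12.9 CPM. Dio2, the deiodinase that activates thyroid hormone, stayed at 0.144 ± 0.280 CPM at day 8 (adjusted p = 0.1978 by edgeR), and Zic1 had a log2 fold change of -0.15 (adjusted p = 0.8439 by edgeR). Ppargc1a is listed at 0 in every library. Whether the authors' annotation assigned reads to this symbol is not given in the sources used here, so absence of its RNA is not read. Lhx8 rose from 0.0849 ± 0.370 to 0.821 ± 1.45 CPM.

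Between lines, 11 of these 25 were called higher with more Ucp1, against 8.92% of all genes. Among them were Prdm16, Ebf2, Ppargc1b, Ppara, Esrra and Dio2, the last at a low day 8 level whose SD exceeded its mean. With the score added to the model 1 remained called, against 0.958%. It was Ppara, the receptor that senses fatty acids, with a slope of 0.43 (SE 0.09, adjusted p = 0.02184 by edgeR). Of 28 thermogenic effectors and further brown fat markers, 20 were called higher at day 8, 5 lower and 3 neither. The shares over all genes were 35.7% higher and 30.2% lower. With more Ucp1, 12 were called higher and 2, Epsti1 and Ebf3, lower, against 8.92% and 11.4% of all genes. With the score added 4 were called higher, against 0.958%, and none lower: Plin5, Acot2, Cpt2 and Gyk, which serve lipid droplets, acyl-CoA hydrolysis, carnitine transfer and glycerol use. None of the 24 common adipocyte genes was called higher with more Ucp1, although all 24 were called higher at day 8, against 35.7% of all genes. Their slopes on Ucp1 were nevertheless positive at the median, at 0.194. The median was 0.175 for the regulators, 0.175 for the effectors and -0.0101 over all genes. Of 17 white and beige markers 10 were called higher at day 8, 2 lower and 5 neither, against the same shares of 35.7% and 30.2%. Lep, Agt and Sncg were the steepest rises and Shox2 and Tbx15 the falls. None of the 17 was called higher with more Ucp1, and 4 were called lower, against 11.4% of all genes. Of 11 endothelial, immune and neural markers 4 were called higher at day 8, near the 35.7% of all genes, 1 lower and 6 neither, and their summed level was 23.8 to 96.9 CPM before and 6.57 to 61.4 CPM after induction. Of 20 relatives of the 10 genes, 10 were called higher, 6 lower and 4 neither, where 35.7% of all genes were called higher and 30.2% lower.

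Whether a line's level before induction foreshadowed its level at day 8 could be asked of 2 genes only, since the other 8 had 10 counts in fewer than 10 undifferentiated libraries. Esrrg had r = 0.448 and rho = 0.331 over the 20 lines, at permutation p-values of 0.0475 and 0.152, or 0.095 and 0.194 adjusted over both genes. Cpt1b had r = 0.279 and rho = 0.302, at permutation p-values of 0.233 and 0.194. Neither passed over all 20 lines. Leaving out B4 and B6, farthest from the median of Esrrg before induction, r was 0.310. Without C6 and D5 it was 0.572, with an adjusted permutation p of 0.0268, while rho was 0.424 at an adjusted permutation p of 0.0809. Of the undifferentiated levels of Esrrg, B6 was highest at 7.54 CPM, C6 next at 6.45 CPM and B3 after it at 5.77 CPM, so that the 2 lines with the most later Ucp1 and the line with none lay together. In the fit of all undifferentiated levels to the later Ucp1 of the line, none of the 10 was called higher by edgeR, against 0.874% of all genes, and none had an unadjusted p under 0.05. Without C6 and D5 Esrrg was called, with a slope of 0.39 (SE 0.09, adjusted p = 0.04334 by edgeR), against 1.02% of all genes. Without B6 its slope was 0.03 and its adjusted p 0.9413.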

How the data were processed

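RNA of 20 lines at 2 stages was poly(A)-selected and sequenced as 100 bp read pairs from strand-marking libraries, per the labels' protocols. The submitters' processing notes name STAR, HTSeq and mouse build mm9, so that the authors' deposited values are raw counts by gene symbol. For versions, annotation and strand setting the sources used here give nothing. Reads without a gene made up 4.35% to 7.89% of tallied reads and were left out with the other tallies, as were 125 symbols that differ only in letter case.

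The 10 genes and all gene lists were chosen with earlier results of these data known. Counts of the 22846 symbols with at least 1 count were fitted in R 4.3.3 with edgeR 4.0.16 (quasi-likelihood F-test, TMM, no further filter) and Benjamini-Hochberg adjustment at 0.05. SEs are the log2 fold change over the root of F. Log2 CPM used a prior count of 2. The same line was grown at both stages, so the line label pairs the libraries. Stage-centred profiles of a line correlated at 0.0719 to 0.545, and 14 of 20 lines correlated best with themselves. Correlations used 100000 permutations of lines, and isoform ratios used 100000 sign flips over lines with 0.5 added to each count. Ratio and single-library intervals are exact at 95%. All 10 genes are described. Genes like Ucp1 are the 10 highest and 5 lowest by rho, and list genes are the 3 steepest rises and 2 falls above 5 CPM plus a set of named regulators. Lengths, overlaps and pseudogenes come from GENCODE M21 on GRCm38, promoters from RefSeq on GRCm38.p6, and neither is the authors' build. Alternatives were RLE factors, filterByExpr, DESeq2 1.42.0, limma 3.58.1 voom, the replicate block, another prior or pseudocount and left-out lines. Scripts were tested on simulated data.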

Additional observations from a re-analysis of the deposited data

How the results depend on the processing

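Of the stage changes of the 10 genes, 77 of 78 values under the alternatives kept their direction and call, the exception being Esrrg without B6, B3 and D6. A paired fit, the line entering as replicate block, called all 10 genes higher, with 7966 genes higher and 7038 lower in all, against 8163 and 6909, and it changed no call of the 10. The log2 fold change of Ucp1 ran from 4.72 with limma-voom to 7.90 without C6 and D5, and limma-voom called 7455 genes higher and 9668 lower. Without C6 and D5, the fit to the adipocyte score called 2 of the 10 genes, with 1533 genes higher and 1763 lower in all, against 3255 and 3037. The fit to Ucp1 called 1955 genes higher and 2499 lower. These counts were 210 and 44 with the score added, 348 and 93 without C6 and D5, and 279 and 218, with 4 of the 9 genes called, without B6, B3 and D6. Without B6, 1560 genes were called lower. In the fit of undifferentiated levels to later Ucp1, 1 of the 10 genes was called without C6 and D5 instead of 0. Without C6 and D5 the r of Esrrg before against after induction was 0.572 (adjusted permutation p = 0.0268). The log2 ratio of Ucp1 to Ucp2 changed by -1.25 with 0.5 added (adjusted permutation p = 0.05125) and by -1.90 with a pseudocount of 1 (0.00331); with Ucp1 at 0 in 13 undifferentiated libraries, the added count sets both values. The cause was not tested. The lines B6, B3 and D6 were left out, and undifferentiated levels fitted to later Ucp1, after the data had been seen. Ucp1 had 3 counts or fewer in 3 day 8 libraries, so that its order among those lines was not detectable at this depth.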
